A study of Mus musculus with 9 samples.

Results

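Defa20, Defa22 and Defa23 encode alpha-defensins, called cryptdins in mice, which are antimicrobial peptides of the granules of Paneth cells. They were taken by name as a small gene family, 3 of the 15342 named genes tested on these arrays, and each was read by 1 probe. The gene family was chosen by the scaled signal of these same arrays, with earlier results in view. Its members were then taken as every probe whose RefSeq accession maps to 1 of the 3 symbols. Their levels and the differences between groups are therefore given as a description, with no test. Paneth cells sit at the base of small intestinal crypts and secrete alpha-defensins, lysozyme and other products into the crypt lumen. The peptides are made as precursors, and in mice the protease matrilysin (Mmp7) cuts the precursor to the active form. The healthy mouse colon normally has few or no Paneth cells, and Wnt signalling through TCF factors drives the maturation of these cells and the transcription of cryptdin genes.

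Total RNA from colonic mucosa labelled normal, of ICR mice, an outbred stock, was hybridised with Cy3 to 9 single-colour arrays. Every mouse, controls included, was injected under the skin once a week for 20 weeks with 20 mg/kg of the colon carcinogen 1,2-dimethylhydrazine (DMH). Nothing else was given to the mice of the 3 DMH arrays. The mice of the other 6 arrays had 1.5% butyrate in their drinking water, a short-chain fatty acid that colonocytes burn as fuel. Tumors were absent in the mice of 3 of these arrays and present in those of the other 3, going by title, description and source name. The field named tumor status states the reverse for all 6 butyrate samples. Were it the right one, the butyrate groups would change places throughout. The labels do not say whether samples of a group are separate animals, so p-values measure only the spread between these samples, which may be technical.

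The arrays lay on 4 slides, and the slides do not cross the groups evenly. Slide 1 held all 3 arrays without tumors and array 1 with tumors, slide 2 held arrays 2 and 3 with tumors, slide 3 held DMH array 1 and slide 4 held DMH arrays 2 and 3. No slide held both butyrate and DMH arrays, so slide and treatment cannot be told apart against DMH. The 6 butyrate arrays were scanned on day 1 and the 3 DMH arrays on day 2. Scan day and treatment therefore cannot be told apart either, also for arrays 2 and 3 with tumors. Each array was scaled by its 75th percentile, which was an intensity of 188.0 to 444.3 on slide 1 and of 739.8 to 879.8 on slides 2 to 4. Between 57.8% and 72.5% of spots passed the scanner's test for well above background, and 0 were saturated. All 11 colonocyte genes looked up were well above background on all 9 arrays. Small intestinal enterocyte genes were detected in part: 13 of 14 were tested, which needs only 3 arrays above background. Fabp2, Sis, Rbp2, Alpi, Enpep and Slc5a1 were above background on all 9 arrays, and Fabp6 and Slc10a2 on 8. Treh was above background on 6 arrays, Apoa4, Lct and Mttp on 4, Apoa1 on 3 and Apoc3 on 0.

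The 250 bases before the start of each gene are shown here to set the members' regulatory sequence beside their like profiles over the arrays. They are from RefSeq, build GRCm38.p6, plus strand, 5′ to 3′, and capitals mark the TCF/LEF letters ATCAAAG and the TATA-box letters TATAAA, searched on both strands. The windows are chr8:21509008-21509257 for Defa20, chr8:21162027-21162276 for Defa22 and chr8:21054790-21055039 for Defa23.
Defa20: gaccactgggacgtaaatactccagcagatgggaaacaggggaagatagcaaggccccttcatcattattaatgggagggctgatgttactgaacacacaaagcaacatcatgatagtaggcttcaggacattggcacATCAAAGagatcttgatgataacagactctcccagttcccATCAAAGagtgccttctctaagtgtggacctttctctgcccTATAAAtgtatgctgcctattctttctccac
Defa22: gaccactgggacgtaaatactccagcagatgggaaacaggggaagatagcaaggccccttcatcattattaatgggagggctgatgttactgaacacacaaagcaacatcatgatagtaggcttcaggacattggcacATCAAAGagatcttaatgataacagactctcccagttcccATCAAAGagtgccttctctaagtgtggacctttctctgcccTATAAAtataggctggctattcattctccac
Defa23: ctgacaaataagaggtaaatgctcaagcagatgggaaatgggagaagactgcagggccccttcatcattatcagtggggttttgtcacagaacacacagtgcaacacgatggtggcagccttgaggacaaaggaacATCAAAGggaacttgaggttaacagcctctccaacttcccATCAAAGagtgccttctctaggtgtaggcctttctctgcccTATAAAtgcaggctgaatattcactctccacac
Each window held 2 matches to ATCAAAG, which began at positions -112 and -72 from the gene start in Defa20 and Defa22, and at -114 and -74 in Defa23. A match to TATAAA began at -31 in Defa20 and Defa22 and at -33 in Defa23. Defa20 and Defa22 were identical at 98.0% of aligned bases (245 of 250), while Defa23 shared 78.0% (198 of 254 aligned columns) with each of them.

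The letters ATCAAAG were in 13 of 16 alpha-defensin windows in the table (81.25%), 9 of them with 2 or more matches. Of all 32851 gene windows 1053 held them (3.21%), and 27 held 2 or more (0.08%). TATAAA was in 15 of 16 alpha-defensin windows (93.75%) against 4063 of 32851 overall (12.37%). A match is a run of letters, not shown to be a bound site. The window of Defa21 was identical to that of Defa22 (250 of 250 bases), although the Defa21 probe was well above background on 0 of 9 arrays. It thus also held 2 matches to ATCAAAG and 1 to TATAAA. The windows of Defa2 and Defa20 were identical too, as were those of Defa31 and Defa23. The 16 windows are therefore not all separate sequences, and the likeness is not particular to the members. Among the 29 protein-coding alpha-defensin genes of the mouse chromosome 8 cluster, Defa23 was the 2nd, Defa22 the 7th and Defa20 the 20th by position. There were 4 between Defa23 and Defa22 and 12 between Defa22 and Defa20.

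**Figure D1:**
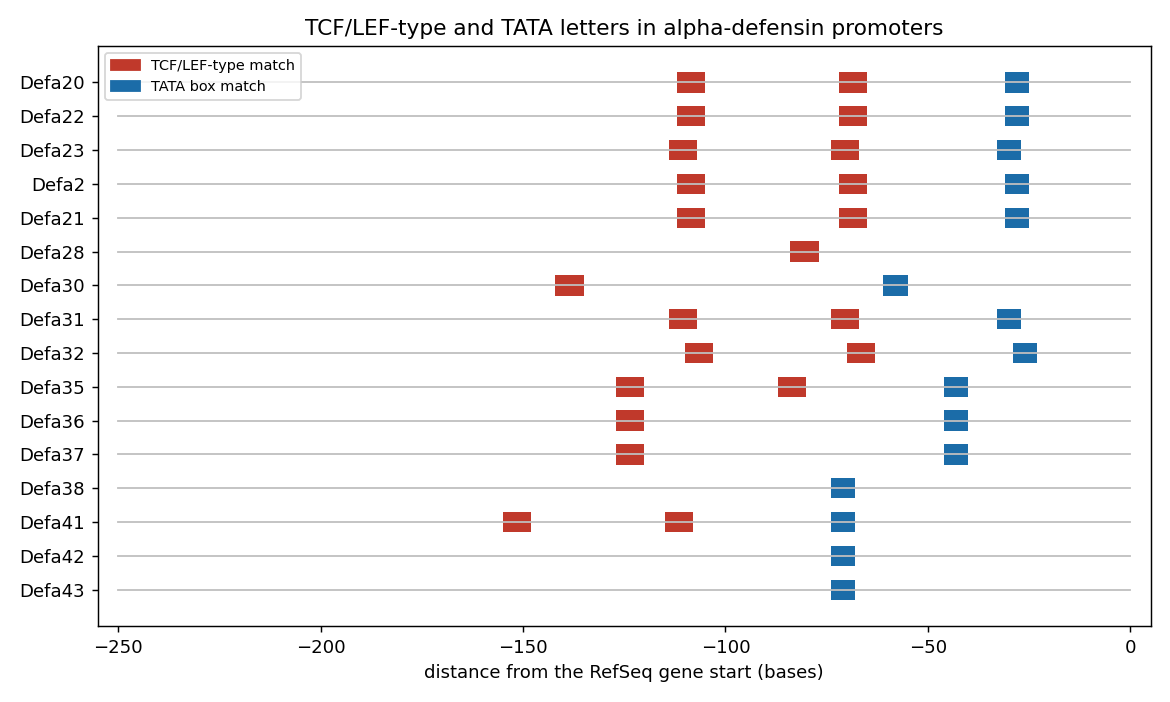
Positions of ATCAAAG and TATAAA letters in the 250 bases before the start of 16 alpha-defensin genes; the horizontal axis is the distance from the start in bases and each line is 1 gene. Defa20, Defa22 and Defa23 each hold 2 matches to ATCAAAG and 1 to TATAAA.

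Signals are given as log2 of the background-corrected intensity minus log2 of the 75th percentile of the same array, so 0 is the level of that percentile and 1 step is a doubling. Defa20 read -4.13, -1.03 and -0.91 on the 3 arrays without tumors, -0.09, 3.07 and 3.80 on those with tumors, and 4.29, 4.07 and 4.25 on the DMH arrays. Before scaling, the intensity of the Defa20 spot was 16.0 to 222.2 without tumors, 176.5 on array 1 with tumors, 7002.3 and 12232.9 on arrays 2 and 3, and 13568.5 to 15594.0 in the DMH group. The spot was well above background on all 9 arrays. All 6 butyrate arrays lay below all 3 DMH arrays, and array 1 with tumors lay nearer to arrays 2 and 3 without tumors than to the other arrays with tumors. The mean was -2.02 ± 1.83 (SD, n = 3) without tumors, 2.26 ± 2.07 with tumors and 4.20 ± 0.12 in the DMH group. The spread within each butyrate group was thus far larger than that within the DMH group.

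Defa22 read -7.25, -7.72 and -7.69 without tumors, -6.60, -2.04 and -1.75 with tumors, and -1.92, -0.93 and -0.82 in the DMH group. Before scaling these were 1.8 to 2.1 without tumors, 1.9, 202.4 and 262.2 with tumors, and 195.7 to 466.1 in the DMH group. No array without tumors read the spot well above background, while 2 of 3 with tumors and 3 of 3 DMH arrays did, and none of the 4 arrays of slide 1 did. The groups with tumors and DMH overlapped, since array 3 with tumors (-1.75) lay above DMH array 1 (-1.92). The means were -7.55 ± 0.26, -3.46 ± 2.72 and -1.22 ± 0.61 in the same order, and the first is only the level of a spot at background.

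Defa23 read -7.21, -6.07 and -4.22 without tumors, -3.28, 1.29 and 1.13 with tumors, and 1.48, 2.08 and 2.20 in the DMH group. Its intensities ran from 1.9 to 22.4 without tumors, were 19.4, 2028.9 and 1926.6 with tumors, and ran from 2068.0 to 3778.6 in the DMH group. The spot was above background on 1 of 3 arrays without tumors, 3 of 3 with tumors and 3 of 3 in the DMH group. As for Defa20, all 6 butyrate arrays lay below all 3 DMH arrays, with arrays 2 and 3 with tumors just below the lowest DMH array. The means were -5.83 ± 1.51, -0.29 ± 2.59 and 1.92 ± 0.39. After scaling, array 1 with tumors, on slide 1, lay above every array without tumors and below arrays 2 and 3 with tumors for Defa20 and Defa23. Before scaling, its Defa20 intensity (176.5) lay below arrays 2 and 3 without tumors (217.8 and 222.2). Its Defa23 intensity (19.4) lay below array 3 without tumors (22.4). Its rank against the arrays without tumors thus depends on the scaling. For Defa22 array 1 with tumors was at background, as were the arrays without tumors, so these 4 arrays have no order.

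**Figure D2:**
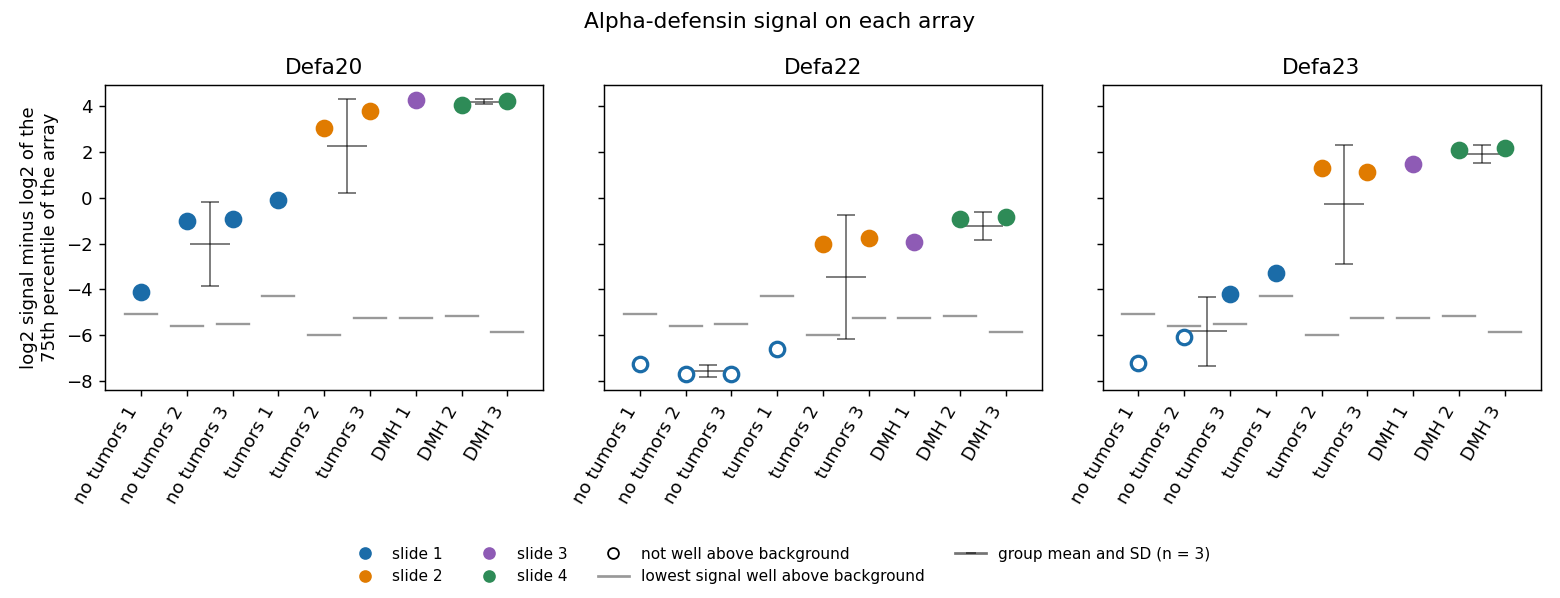
Signal of Defa20, Defa22 and Defa23 on each array, as log2 relative to the 75th percentile (vertical axis); points are arrays coloured by slide, open where the spot was not well above background, crosses are the group mean with SD (n = 3) and grey bars the lowest signal well above background on the array. The 4 arrays of slide 1 lie below the 5 others in each gene.

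Between the butyrate group as a whole and the DMH group, the difference in log2 signal was -4.08 ± 1.75 (SE) for Defa20, -4.29 ± 1.71 for Defa22 and -4.98 ± 2.15 for Defa23. Each SE of a member pools the spread of the groups compared, while that of other genes is from limma. Pooling takes the spreads as equal, though the SD of Defa20 was 2.92 with butyrate and 0.12 in the DMH group. The Defa22 value includes 4 butyrate arrays at background, and the Defa23 value 2, so neither size is fully measured. The butyrate arrays did not overlap the DMH arrays in 2 of 3 genes (Defa20 and Defa23), where 11.8% of all features did not overlap in that direction. In linear terms Defa20 was 17.0-fold lower. The 4 butyrate arrays of slide 1 carry most of this difference: over arrays 2 and 3 with tumors alone, it was -0.77 ± 0.28 for Defa20, -0.67 ± 0.46 for Defa22 and -0.71 ± 0.29 for Defa23, which is 1.70-fold, 1.59-fold and 1.64-fold lower. The family was picked with these values known, and nothing is read from such counts here or in the comparisons that follow.

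Against DMH, the group without tumors differed by -6.23 ± 1.06 (74.8-fold lower) for Defa20. For Defa23 the difference was -7.75 ± 0.90, with 1 of 3 arrays without tumors above background. Defa22 was at least 18.1-fold lower, since no array without tumors read it above background; this bound sets the lowest signal well above background against the DMH mean. All 3 genes had arrays without tumors below every DMH array, as did 27.1% of all features. Among the 21968 features ordered from the lowest difference, Defa20, measured on every array, was number 12.

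The group with tumors against DMH gave smaller differences: -1.94 ± 1.20 for Defa20, -2.24 ± 1.61 for Defa22 and -2.21 ± 1.51 for Defa23, and the groups did not overlap in 2 of 3 (Defa20 and Defa23), against 19.5% of all features. Between the butyrate groups the difference, without minus with tumors, was -4.28 ± 1.59 for Defa20 and -5.54 ± 1.73 for Defa23, the latter with 1 of 3 arrays without tumors above background. Defa22 was 3.8-fold lower without tumors when that group is set at the lowest signal above background, with 2 of 3 arrays with tumors above background. The mean with tumors includes array 1 at background (-6.60), so this is not a strict bound. After scaling, the groups did not overlap in Defa20 and Defa23, nor did 16.7% of all features in that direction. For Defa22 an overlap cannot be judged at background. Before scaling, the groups overlapped in Defa20, where array 1 with tumors read 176.5, against 16.0 to 222.2 without tumors. They also overlapped in Defa23, at 19.4 against 1.9 to 22.4. By scaled signal within slide 1, array 1 with tumors lay 1.93 above the mean of the arrays without tumors for Defa20 and 2.55 for Defa23. That array had the lowest 75th percentile (188.0), so these sizes depend on the scaling. For Defa22 none of the 4 arrays of slide 1 had a signal above background.

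Set by slide instead of group, slide 1 minus slides 2 to 4 gave -5.44 ± 0.82 for Defa20 (43.3-fold lower) and -6.83 ± 0.82 for Defa23. Defa22 was at least 12.4-fold lower on slide 1. The 4 arrays of slide 1 lay below the 5 others in all 3 genes, as did 13.5% of all features, and the mean was lower by 4 or more log2 steps for Defa20 and Defa23 (the latter above background on 2 of the 4) among 45 of 21968 features (0.205%). This is a split by slide seen after the values were known, and the part of slide in the differences was not tested. In bulk tissue, fewer cells of a type and less RNA per cell cannot be told apart.

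Other alpha-defensin probes gave a like picture on some arrays, but they cannot serve as separate evidence. The coding sequences of alpha-defensin genes are very similar, the probe sequences were not used here, and a probe may read several of them. The first Defa3 probe read -4.35, -1.42 and -0.54 without tumors, -0.19, 3.28 and 3.63 with tumors and 4.38, 4.17 and 4.31 in the DMH group. A second Defa3 probe, the one used in the fit, ran from 0.30 to 0.76, from 0.96 to 3.64 and from 3.67 to 3.94 in the same order. The probes thus disagreed in size, since the group without tumors minus DMH was -6.39 for the first and -3.27 ± 0.58 for the second. By limma the latter passed the threshold (adjusted p = 0.00672), though not with slide as a random block (-2.68, adjusted p = 0.061). Its other differences did not pass. The adjusted p was 0.0787 for all butyrate arrays against DMH, 0.0544 between the butyrate groups and 0.186 for the group with tumors against DMH.

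The 2 Defa39 probes differed on array 1 with tumors. The brighter probe read -5.38, -6.09 and -6.13 without tumors, -3.07, -3.75 and -3.79 with tumors, and -3.65, -3.80 and -3.95 in the DMH group. Array 1 with tumors, on slide 1, was thus the highest of all after scaling. Before scaling that array read 22.4, against 61.9 and 63.5 on arrays 2 and 3 with tumors and 53.2 to 59.0 in the DMH group. The brighter probe was above background on 0 of 3 arrays without tumors, 3 of 3 with tumors and 3 of 3 DMH arrays. It passed the filter only through the last 2 groups. By limma it was lower without tumors against DMH by 2.07 ± 0.27 (adjusted p = 0.00242, at least 3.0-fold). Between the butyrate groups it was -2.33 ± 0.27 (adjusted p = 0.0114, at least 3.6-fold lower without tumors). Both calls use background readings for the arrays without tumors, so nothing is read from them. With tumors against DMH the difference was 0.27 with adjusted p = 0.538. The dimmer Defa39 probe was above background on 0 of 4 arrays of slide 1 and 5 of 5 others, so it did split by slide, and array 1 with tumors (-4.74) lay below the lowest of the others (-4.62). Within slide 1 the difference between the butyrate groups was -2.80 with adjusted p = 0.0888, and slide as a random block gave -2.57 with adjusted p = 0.0152. With normexp correction it was -0.45 (adjusted p = 0.0572), and -0.34 without tumors against DMH (adjusted p = 0.0803). Another probe, which carries the accession of Defa31 only in the DMH files, ran from -5.77 to -2.76 without tumors, from -2.02 to 3.06 with tumors and from 2.93 to 3.13 in the DMH group, and its name is therefore uncertain.

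**Figure D3:**
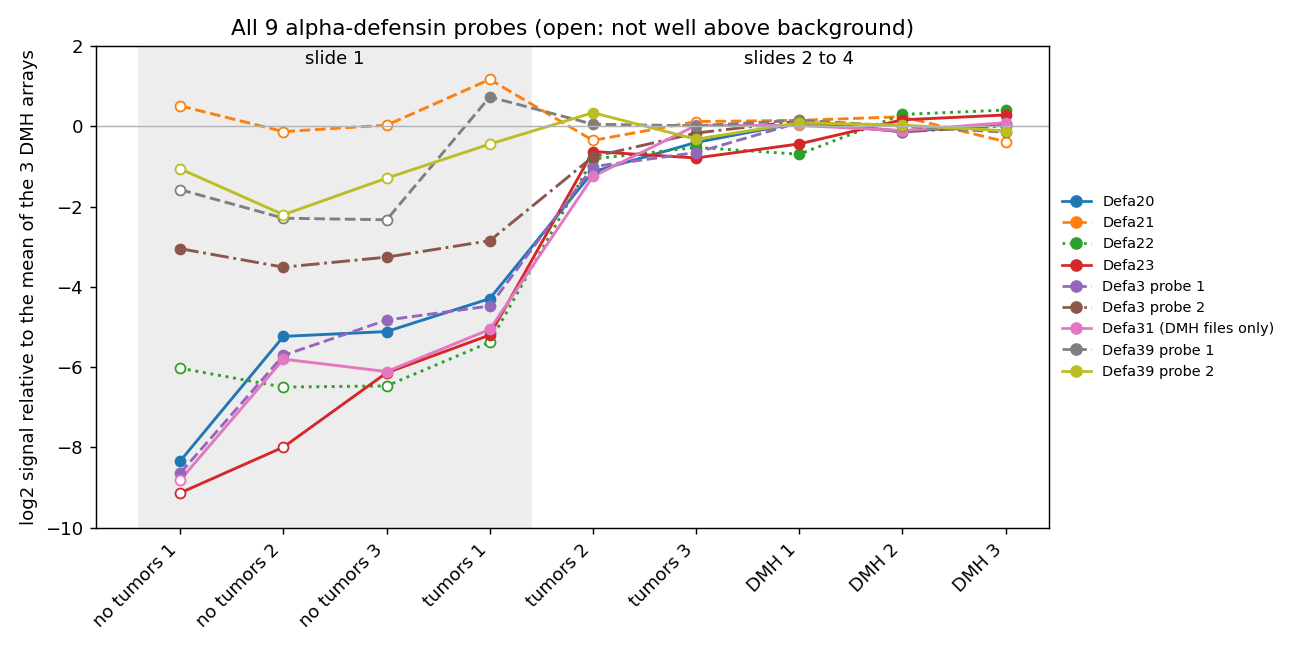
Log2 signal of all 9 alpha-defensin probes on each array, as the difference from the mean of the 3 DMH arrays (vertical axis), with open points where the probe was not well above background and the arrays of slide 1 shaded. The first Defa3 probe and the probe with the Defa31 accession follow the pattern of Defa20, and the second Defa3 probe spans a smaller range. After scaling, array 1 with tumors is high for Defa39 probe 1 but not for Defa39 probe 2.

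Other products of Paneth and crypt-base cells did not all move with the alpha-defensins. Of 12 such genes listed, 9 were tested by limma. Between butyrate and DMH 2 of 9 fell, where 9.21% of all features were called and 3.36% were called lower. Ang4, an antimicrobial ribonuclease, fell by 3.17 ± 0.22 (adjusted p = 0.000926), and Itln1, a lectin of Paneth and goblet cells, fell by 2.94 ± 0.62 (adjusted p = 0.0301), a call lost under 5 of 20 alternatives, with slide as a random block (adjusted p = 0.139) among them. The median over the 9 was -1.54, against 0.08 over all features.

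Ang4 was low on all 6 butyrate arrays, from 0.73 to 1.08 without tumors and from 0.88 to 1.68 with tumors, against 4.15 to 4.30 in the DMH group. It fell in each group, by 3.35 ± 0.22 without tumors (adjusted p = 0.000462) and by 2.98 ± 0.22 with tumors (adjusted p = 0.00265). After scaling, array 1 with tumors (1.68), which had the lowest 75th percentile (188.0), was the highest butyrate array for Ang4. Mmp7, the alpha-defensin processing enzyme, read -0.37, -3.09 and -2.26 without tumors, -1.01, 1.71 and 1.72 with tumors and 3.07, 3.04 and 3.13 in the DMH group. It fell by 4.98 ± 0.84 without tumors (adjusted p = 0.00572), or -4.28 with slide as a random block (adjusted p = 0.0678). In that comparison 3 of 9 genes fell, Itln1 being the other (by 2.83 ± 0.75, adjusted p = 0.0242, lost under 4 of 18 alternatives), with a median of -1.03, where 30.5% of all features were called and 13.8% were called lower. Array 1 with tumors lay within the range of the arrays without tumors for Mmp7 and below the other arrays with tumors.

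Lyz1, lysozyme of Paneth cells, did not follow the alpha-defensins. It read 2.28, 3.06 and 3.32 without tumors, 5.07, 4.12 and 4.53 with tumors and 3.48, 3.91 and 3.83 in the DMH group. Its highest array was array 1 with tumors, on slide 1. That array was scaled by the lowest 75th percentile of all (188.0), and this rank depends on the scaling. Lyz1 was lower without than with tumors by 1.69 ± 0.33 (adjusted p = 0.0207), the only 1 of 9 called there, where 13.5% of all features were called and 6.98% were called lower. Within slide 1 the difference was -2.18 with adjusted p = 0.126, and without array 3 with tumors it was -1.71 with adjusted p = 0.0751. With tumors against DMH 2 of 9 fell (5.7% of all features were called and 2.26% were called lower): Ang4 and Mptx1, a pentraxin of the gut, by 2.07 ± 0.44 (adjusted p = 0.0401), a call that was lost under 13 of 19 alternatives.

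The lectins and Reg family members varied widely between butyrate arrays. Reg3b ran from 3.39 to 5.70 over the butyrate arrays and from 4.53 to 4.71 in the DMH group, Reg3g from 1.76 to 5.01 and from 3.44 to 3.63, and Reg4 from 0.18 to 4.85 and from 5.20 to 5.37. Itln1 read 0.04 to 3.28 on the butyrate arrays and 4.88 to 4.98 in the DMH group. Reg3a, above background on 8 arrays, ran from -6.38 to -2.10 in the butyrate group and from -4.50 to -4.13 in the DMH group. Pla2g2a and Mptx2 had no named probe, and Habp2 was above background on no array.

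**Figure D4:**
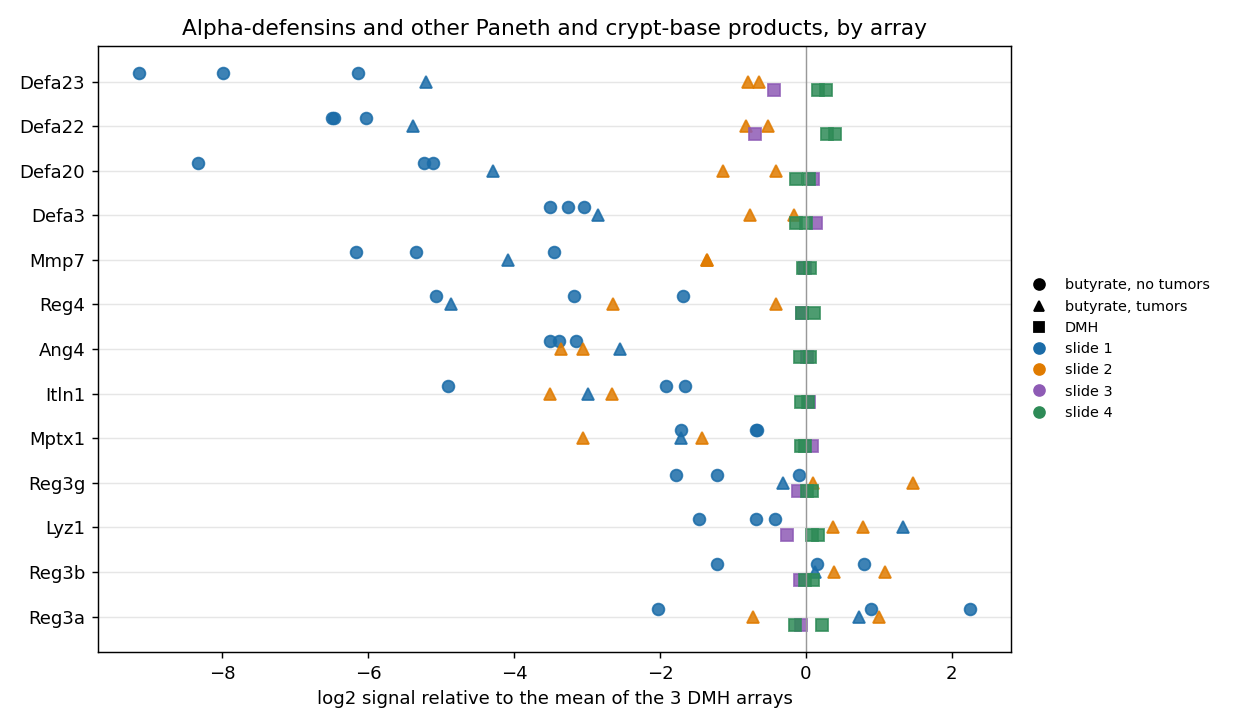
Log2 signal of the alpha-defensins and of other Paneth and crypt-base products on each array, as the difference from the mean of the 3 DMH arrays (horizontal axis), with shape for the group and colour for the slide. Ang4 is low on all 6 butyrate arrays, Mmp7 is lower on slide 1 than on the other slides, and Lyz1, after scaling, is highest on array 1 with tumors.

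Among 20 tested regulators and signals of the Paneth lineage, 5 fell and 1 rose between butyrate and DMH, where 9.21% of all features were called and 3.36% were called lower, and the median was -0.41. Spdef, a transcription factor of secretory maturation, fell by 1.86 ± 0.45 (adjusted p = 0.038). Kcnn4, a potassium channel of Paneth cell secretion, fell by 0.95 ± 0.21 (adjusted p = 0.032) and Dll4, a Notch ligand, by 1.22 ± 0.30 (adjusted p = 0.0414). Tcf7l2, which encodes the Wnt effector TCF4, rose by 0.89 ± 0.17 (adjusted p = 0.0276) at its brightest probe, while its other probes gave 0.58 and 0.19. These calls were lost under 9 of 20 alternatives for Spdef, 8 of 20 for Kcnn4, 11 of 19 for Dll4 and 11 of 20 for Tcf7l2.

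Without tumors against DMH 3 of 20 rose and 4 fell, a share near the 30.5% of all features called. Tcf7l2 rose by 1.04 ± 0.16 (adjusted p = 0.00442) and Dll1, a Notch ligand, by 1.18 ± 0.20 (adjusted p = 0.00556), while Xbp1, a regulator of secretory cells, fell by 0.77 ± 0.21 (adjusted p = 0.0247), a call lost under 9 of 18 alternatives. The Dll1 call was lost with slide as a random block (1.12, adjusted p = 0.0657) and with no scaling (0.10, adjusted p = 0.923), where Tcf7l2 turned to -0.04. With tumors against DMH 2 rose and 2 fell, where 5.7% of all features were called, with Spdef at -2.39 ± 0.40 (adjusted p = 0.029, lost under 8 of 19 alternatives) and Atoh1, the factor that starts the secretory lineage, at -1.73 ± 0.36 (adjusted p = 0.04, lost under 12 of 19 alternatives). Wnt3, a Paneth cell Wnt ligand, was higher by 1.72 ± 0.39 (adjusted p = 0.046, lost under 15 of 18 alternatives) at its brightest probe, but a dimmer Wnt3 probe gave -0.27, and the brightest was above background on 2 arrays with tumors and 1 DMH array. Between the butyrate groups 2 rose and 1 fell, near the 13.5% of all features called. Sox9, needed for Paneth cells, ran from -0.28 to 1.79 over the arrays at its brightest probe, which gave -0.46 between butyrate and DMH, while its other probes gave -1.38 and -1.56 there, untested. Gfi1 ran from -1.49 to 0.61 and Nod2, a bacterial sensor, from -0.58 to 0.26, and none of the 3 genes was called at the probe used in the fit.

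Named genes outside the family with the profile most like the mean of the 3 members over the 9 arrays, by Pearson's r, were Rpl35a (0.997), Zfhx3 (0.996), Dnaaf2 (0.996), Rbm8a (0.995) and Rps27a (0.995). The arrays fall in 2 sets by slide in these profiles, so r is a description only. Of the same kind, 350 of 15264 named features (2.29%) had r of 0.95 or more and 358 had -0.95 or less. Rpl35a and Rps27a encode ribosomal proteins. From slide 1 to slides 2 to 4 they differed by -2.81 and -3.79, and Zfhx3 by -2.86, on the same scale on which Defa20 differed by -5.44.

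The neutrophil and squamous lists were also lower on slide 1, and the other lists overlapped between slides. Mouse neutrophils are not known to make alpha-defensins. The summed signal of 6 tested neutrophil granule genes, relative to the 75th percentile, ran from 0.1852 to 0.5508 on slide 1 and from 1.861 to 7.156 on slides 2 to 4, and of 11 listed Ngp, Elane and Cxcr2 were above background on 0 arrays and Camp and Mmp8 on 1. Without tumors against DMH 5 of these 6 fell, where 13.8% of all features were called lower. Of the 5, S100a8, Ltf and Lcn2 were above background on 0 arrays without tumors. They passed the filter only through the other groups, so nothing is read from this count. Squamous epithelium genes (5 of 7 tested) ran from 0.9513 to 2.464 and from 3.035 to 4.908, with Sprr3 and Ivl above background on 0 arrays. The 8 goblet cell genes overlapped, at 238.7 to 633.9 and 385.1 to 1630, and 5 of them fell between butyrate and DMH, where 3.36% of all features were called lower. Colonocyte genes overlapped at 432.5 to 673.4 and 379.5 to 680.4, small intestinal enterocyte genes at 51.64 to 104.6 and 33.95 to 142.7, and smooth muscle genes at 383 to 873.5 and 221.5 to 526.5. By group, the summed signal of smooth muscle genes lay higher on all 6 butyrate arrays (383 to 873.5) than on the DMH arrays (221.5 to 380.1). By the list median relative to the DMH mean, array 3 without tumors (0.367) lay below DMH array 1 (0.446). Without tumors against DMH 4 of 8 rose (Actg2, Cnn1, Myh11 and Synm, median of the list 1.097). There 3656 of 21968 features were called higher, and 30.5% were called in either direction. Goblet cell genes lay lower on all 6 butyrate arrays (238.7 to 872.8) than on the DMH arrays (1482 to 1630). The part of these cell types in the alpha-defensin differences was not tested.

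Over all features the split of calls changed with the scaling. Between butyrate and DMH 1285 were higher and 738 lower, against 818 and 928 with normexp and quantile scaling, 469 and 729 in the authors' values, and 0 and 35 with no scaling, in which the median feature was at -0.76. Without tumors against DMH the split was 3656 higher and 3039 lower, against 3777 and 1852 in the authors' values and 5 and 1545 with no scaling. With tumors it was 756 and 497, against 440 and 489 with quantile scaling, 447 and 704 with normexp, 414 and 1543 in the authors' values and 1 and 34 with no scaling. Between the butyrate groups it was 1439 and 1534, against 1457 and 924 with quantile scaling, 1670 and 1017 with normexp, 3749 and 633 in the authors' values and 0 and 1 with no scaling. The differences of Defa20, Defa22 and Defa23 were below 0 in every alternative that gave a value, though for Defa22 within slide 1 all values were at background. The family was picked on these values, and several alternatives return the main value of a 1-probe gene unchanged. The shared sign is therefore no test.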

How the data were processed

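Total RNA of 9 samples in 3 groups of 3 was read on 1-colour Agilent arrays. Per the file headers, the deposited intensity (gProcessedSignal) is background-subtracted by Feature Extraction 10.5.1.1 and not scaled across arrays. The authors' deposited log2 table (21829 probes) is that intensity shifted by 1 constant an array (SD about the constant 0.0091 or less), and what the constant is stays unknown. It holds Defa20 but not Defa22 or Defa23.

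Here log2 intensity minus log2 of the 75th percentile of the array over 43379 non-control spots was used. Outlier spots were left out and spots of a probe averaged. Of 41174 probes, 28529 were well above background on at least 3 of 9 arrays. With at least 2 values per group and the brightest probe per gene, 21968 features were tested, 15342 named; 26925 probes had 1 symbol through RefSeq and 14249 had none. The DMH files carry another annotation version, in which 4725 probes have another accession, and the butyrate version was used. limma 3.58.1 (lmFit and eBayes, 2-sided) in R 4.3.3, with Benjamini-Hochberg adjustment over all features and a threshold of 0.05, fitted 6 butyrate against 3 DMH arrays in 2 groups and the other comparisons in 1 fit of 3 groups. It was tested on simulated data.

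The members and lists were chosen with earlier results of these data known. Named were the members and other Defa genes, every measured Paneth product, fixed regulators and up to 4 called genes of each other list by smallest p, and the 5 most similar profiles. Names not needed for a result about the members are not given. A fold is "at least" where a group was above background on no array, against the lowest signal above background. Alternatives were other scalings and background correction (normexp, offset 50), the authors' values, other filters, all probes averaged, blocks for replicate and slide, other fits and leaving out arrays. The fit without slide 1 was chosen after seeing the data. The deposited files name mm9, and positions here are only RefSeq's on GRCm38.p6.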

Additional observations from a re-analysis of the deposited data

Results flagged for a closer look

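Among the 6 butyrate arrays, Tcf7l2 stood apart on array 3 with tumors (3.38) and Kcnn4 on array 1 without tumors (0.30), with a gap to the nearest array of 0.628 and 0.626 of the whole range. Chance marks about 1 in 20 such groups. The rule was run over the members, the other Defa genes, the Paneth products and the named regulators, so nothing is read from these marks. The difference from DMH itself differed between the butyrate groups, without minus with tumors, for Defa39 (-2.33, adjusted p = 0.0114 by limma), Lyz1 (-1.685, adjusted p = 0.0207), Egf (0.97, adjusted p = 0.0223), Wnt3 (-1.54, adjusted p = 0.0402) and Fzd5 (1.50, adjusted p = 0.0494). The calls were lost under 6 of 19 alternatives for Egf, 13 of 18 for Wnt3 and 13 of 19 for Fzd5, within slide 1 among them. For Lyz1 and Defa39 they were lost under 3 of 19 and 3 of 18, also within slide 1. A dimmer Fzd5 probe gave -0.03, and Wnt3 was above background on 0 arrays without tumors and 2 with tumors. The Defa39 probe used in the fit was above background on 0 arrays without tumors and 3 with tumors.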

How the results depend on the processing

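The 12 differences of Defa20, Defa22 and Defa23 between groups kept their sign in every alternative run. Within slide 1 Defa22 was at background on all 4 arrays, so its sign there says nothing. Other filters, all probes averaged and the replicate block returned the main values of these 1-probe genes unchanged. The family was also picked on these values, so the kept sign is no test. Of 34 differences of other genes followed, 4 kept their call, or lack of one, in every alternative: Ang4 in 3 comparisons with DMH and Defa3 with tumors against DMH. Without the 4 arrays of slide 1 the butyrate difference was -0.77, -0.67 and -0.71 for the 3 genes in that order. Within slide 1 the difference without against with tumors, after scaling, was -1.93, -0.95 and -2.55. With normexp, Defa22 gave -1.55 for all butyrate arrays, -2.02 for those without tumors (both against DMH) and -0.95 between the butyrate groups, and Defa23 gave -4.63 and -2.85 for the last 2 comparisons. Without tumors against DMH, Defa22 gave -7.41 with no scaling, and slide as a random block gave -5.03 for Defa22 and -6.55 for Defa23. Leaving out each array gave butyrate against DMH -4.82 to -3.23 for Defa20, -5.04 to -3.84 for Defa22 and -5.85 to -4.15 for Defa23; with tumors against DMH -2.71 to -0.77, -3.10 to -0.67 and -2.996 to -0.71, the last value of each without array 1 with tumors. Features called for butyrate against DMH (2023) were 35 with no scaling, 1198 in the authors' values, 511 with no filter on dim probes, 17 with slide as a random block and 5054 with 3 groups in the fit, and 7 to 3629 leaving out each array (210, 7 and 8 without DMH arrays 1, 2 and 3; 1291, 263 and 712 without arrays 1, 2 and 3 without tumors; 3629 without array 3 with tumors). With tumors against DMH (1253) they were 35, 1957, 190 and 4 under the first 4 of these, 2507 without slide 1 and 4 to 1794 leaving out each array (487, 4 and 4 without DMH arrays 1 to 3, 317 and 443 without arrays 2 and 3 without tumors, 53 without array 3 with tumors). Without tumors against DMH (6695) they were 1550 with no scaling, 1006 with slide as a random block and 2841 to 9943 leaving out each array (4159, 2841 and 2914 without DMH arrays 1 to 3, 3979 without array 2 without tumors). Between the butyrate groups (2973) they were 1 with no scaling, 1442 with no filter, 177 to 7774 leaving out each array (177 without array 3 and 7774 without array 1 with tumors, 1008 to 1793 without a DMH array, 1069 to 1287 without an array without tumors) and, by limma, 0 within slide 1, where 4476 had an unadjusted p under 0.05. Paneth products called for butyrate against DMH (2) were 1 with slide as a random block, 4 with 3 groups and 1 to 4 leaving out each array; with tumors against DMH (2), 1 with quantile scaling, no scaling, no filter or slide as a random block and 1 to 3 leaving out each array; without tumors against DMH (3), 1 with slide as a random block and 2 to 5; between the butyrate groups (1), 0 with no scaling or within slide 1, 2 in the authors' values and 0 to 3. With no scaling Egf and Tcf7l2 turned sign without tumors against DMH, at -0.39 and -0.044. The cause of these changes was not tested.

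The replicate numbers were not taken as pairs in the main fit. Of 9 pairs of arrays with the same number, 4 correlated over 0.1 in their deviations from the group means (-0.01 to 0.263). Pairs with different numbers ran from -0.241 to 0.227. These values do not settle whether the numbers pair the samples. With replicate number as a block, 585 features were called for butyrate against DMH and 477 with tumors against DMH, and 1 Paneth product in each. Array number limits precision, and spots at background carry only a bound.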
